A study of Mus musculus with 6 samples.

Results

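Serine synthesis and folate-dependent one-carbon metabolism were followed through 10 genes of mouse neural stem cells (NSCs), taken by symbol from the 24972 gene names in the table. They comprised the serine synthesis genes Phgdh, Psat1 and Psph, the serine transporter gene Slc1a4, the mitochondrial folate enzyme genes Shmt2, Mthfd2, Mthfd1l and Aldh1l2, and the cytosolic folate enzyme genes Shmt1 and Mthfd1. All 10 were found, none was at 0 in any library, and all passed the filter on low values. Poly(A) RNA had been sequenced from 6 monolayer cultures, 3 from Tsc2 wt/wt mice (titled control) and 3 labelled Tsc2 mut/mut (titled TSC, with floxed Tsc2 alleles). Both groups came from neonatal pups that carried a tamoxifen-inducible Cre under the Nestin promoter and a Cre-dependent red fluorescent reporter, and both were injected with tamoxifen, so the Tsc2 alleles are the difference between the groups that the sources name. Cre acts only in cells in which that promoter has been active. The V-SVZ, the ventricular-subventricular stem cell zone beside the lateral ventricles, was dissected. Its cells were grown with EGF and FGF on laminin and poly-D-lysine and were subcultured. Nothing in the sources says how many animals went into each culture, so p-values measure the spread between these 6 cultures only.

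Serine is made from the glycolytic intermediate 3-phosphoglycerate by PHGDH, PSAT1 and PSPH in turn. Serine hydroxymethyltransferase then splits serine into glycine and a one-carbon unit carried on tetrahydrofolate, in mitochondria by SHMT2 and in the cytosol by SHMT1. Inside mitochondria the unit is oxidised by MTHFD2 and released as formate by MTHFD1L, or burnt to carbon dioxide by ALDH1L2, and in the cytosol MTHFD1 takes formate up again for purine and thymidylate synthesis. Tuberin, the product of Tsc2, restrains the growth kinase complex mTORC1, and the transcription factor ATF4 is a known link from mTORC1 to the serine and mitochondrial folate genes.

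Promoter sequence is shown for 4 of the genes because ATF4 is known to bind CARE elements and because CCAAT boxes recurred in these genes. Sequences are those of RefSeq on build GRCm38.p6, 250 bases before to 50 bases after each start, with CCAAT and the CARE core TGATGNAA in capitals, also where they lie on the reverse strand. Phgdh lies at chr3:98339920-98340219, Psat1 at chr19:15925010-15925309, Mthfd2 at chr6:83317555-83317854 and Slc1a4 at chr11:20332664-20332963, all on the minus strand.
Phgdh: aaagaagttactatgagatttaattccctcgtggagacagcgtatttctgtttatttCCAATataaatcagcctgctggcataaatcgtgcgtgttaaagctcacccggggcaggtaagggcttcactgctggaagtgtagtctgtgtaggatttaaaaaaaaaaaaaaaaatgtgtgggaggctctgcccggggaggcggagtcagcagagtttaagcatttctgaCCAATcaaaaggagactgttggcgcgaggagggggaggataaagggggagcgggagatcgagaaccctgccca
Psat1: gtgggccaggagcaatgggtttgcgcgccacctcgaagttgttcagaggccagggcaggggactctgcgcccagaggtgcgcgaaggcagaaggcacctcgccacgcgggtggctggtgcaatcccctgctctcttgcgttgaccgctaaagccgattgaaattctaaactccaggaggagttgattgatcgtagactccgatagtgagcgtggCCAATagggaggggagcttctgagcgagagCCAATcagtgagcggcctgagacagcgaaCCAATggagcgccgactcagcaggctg
Mthfd2: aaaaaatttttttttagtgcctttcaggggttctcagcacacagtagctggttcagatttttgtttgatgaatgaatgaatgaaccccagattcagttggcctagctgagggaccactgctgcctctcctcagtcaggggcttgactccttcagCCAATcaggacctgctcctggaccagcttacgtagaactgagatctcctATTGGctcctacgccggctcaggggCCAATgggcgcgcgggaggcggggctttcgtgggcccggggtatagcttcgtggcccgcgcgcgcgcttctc
Slc1a4: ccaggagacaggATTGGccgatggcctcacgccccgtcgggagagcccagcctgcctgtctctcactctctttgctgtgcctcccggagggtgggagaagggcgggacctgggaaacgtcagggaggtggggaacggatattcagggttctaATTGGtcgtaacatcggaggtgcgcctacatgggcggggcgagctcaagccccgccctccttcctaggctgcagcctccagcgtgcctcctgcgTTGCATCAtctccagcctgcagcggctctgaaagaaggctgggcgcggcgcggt

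Of the 10 genes, 9 had a promoter entry, and Aldh1l2 had none. These 9 genes had 10 entries, as Psat1 had 2. A gene was counted where any of its entries held the motif, whereas the percentages are of single entries. The CARE core was found in 1 of the 9, Slc1a4, on the reverse strand with its first base at position -4 from the start, against 3.97% of the 32851 mouse promoters of the same length. The E-box CACGTG, a motif bound by MYC, was found in 0 of the 9, against 7.15% of promoters. CCAAT, a short motif searched for only after the sequences had been seen, was found on either strand in 7 of the 9, against 37.4% of promoters. Mthfd2 and the Psat1 promoter shown each held 3 copies, a number reached by 3.37% of promoters, and the other of the 2 Psat1 entries (chr19:15924573-15924872) held none. In the Psat1 promoter shown the copies began at -36, -6 and 24, and in Mthfd2 at -96, -47 and -22. Shmt2 and Mthfd1l held none. A match describes letters in a window, and absence describes only this window.

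The whole series was checked in brief. In units of 1000000, normalised totals spanned 28.99 to 30.36 in wt/wt libraries and 45.05 to 55.75 in libraries labelled mut/mut, and estimated reads 33.7 to 55.3 and 23.7 to 49, with mut/mut replicate 3 the shallowest. Tsc2 itself was measured at 3231, 2934 and 2794 normalised counts in wt/wt replicates 1 to 3 and at 4766, 5645 and 8210 in those labelled mut/mut (log2 fold change 1.02 ± 0.20, SE, limma adjusted p = 0.00101; exact permutation p = 0.1, two-sided, the lower limit for 3 against 3). A value over the whole gene does not isolate the floxed part, so it does not check the genotype label. The study itself reports that its NSC subcultures had lost Tsc2, with western blots for tuberin from the sequenced NSCs. Summed NSC markers were high in both groups (384693 to 439816 and 442926 to 478796 normalised counts), with 5 of 15 called higher and 5 lower in mut/mut. Vim (log2 fold change 0.66) and Olig1 (0.76), the most abundant, were called higher, as were Olig2 (0.35), Hes1 (0.65) and Hes5 (2.23). Sox2 (-1.28), Fabp7 (-2.43), Slc1a3 (-1.35), Pax6 (-0.54) and Prom1 (-1.69) were called lower, so the sums hide these falls. Markers of other cells moved with genotype. Oligodendrocyte precursor markers, all 6 tested lower, summed to 11544 to 17214 and 1209 to 2102, myelin markers (4 of 5 tested lower) to 2592 to 11143 and 170.1 to 257.5, and microglia markers (7 of 8 tested lower) to 398 to 1088 and 31.02 to 59.7, with Cx3cr1, Aif1, Ptprc and Itgam at 0 in every mut/mut library. Ependymal markers, 3 of 4 tested higher, summed to 783.8 to 1177 and 6081 to 8852, most of it Foxj1. Astrocyte markers were 4 of 5 lower and 1 higher (summed 14084 to 21936 and 15881 to 24054). On the log2 scale Aqp4 was at -3.42 and Slc1a2 at -3.08, but Aldoc, the most abundant of them, was at 0.90. Neuroblast and neuron markers were 5 of 9 lower and 3 higher (3118 to 3288 and 1561 to 2349). Dcx was at -6.71, whereas Stmn2 was at 2.30, Dlx2 at 1.55 and Tubb3 at 1.15, and Rbfox3 was not called. Pericyte and smooth muscle markers were 2 of 4 higher and 1 lower (6803 to 10376 and 6414 to 9457), with Acta2 at 5.87 and Tagln at 5.48. Cspg4, also in the oligodendrocyte precursor list, was most of the wt/wt sum and fell with -2.58, so the similar sums hide these shifts. Of the other lists, endothelial markers summed to 35.85 to 49.47 and 42.55 to 59.9, choroid plexus markers to 25.1 to 579.4 and 118.4 to 1363, and fibroblast markers, among which Pdgfra fell, to 2227 to 2447 and 179.4 to 522.1. S phase genes, 12 of 16 higher and 1 lower, summed to 54815 to 70988 and 147815 to 167108. Ddx3y, a Y-linked gene, stood at 867 to 932 normalised counts in wt/wt libraries and at 2.54 to 7.43 in mut/mut, and the X-inactivation transcript Xist at 1107, 87.89 and 68.92 in wt/wt replicates 1 to 3 and at 350.6, 290 and 357 in mut/mut. Wt/wt replicate 1 thus carried Y-linked transcripts and the highest Xist, and the sex of the cultures and genotype cannot be told apart. The part of these shifts in the values below was not tested, and in bulk RNA fewer cells of a type and less RNA per cell cannot be told apart.

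With genotype compared across all 13964 genes tested, 8 of the 10 serine and folate genes rose in mut/mut cultures, 1 fell and 1 did not pass the test. Serine synthesis rose as a whole, with Phgdh 7.89-fold, Psat1 5.5-fold and Psph 4.82-fold higher by group means. Mitochondrial folate genes divided, with Shmt2 and Mthfd2 higher, Aldh1l2 lower and Mthfd1l not called, whereas both cytosolic genes rose about 3-fold. Much of the transcriptome differed between the groups, as 75.5% of all tested genes were called, 36.8% higher and 38.7% lower. The 4 genes with a log2 fold change over 2 were Phgdh, Shmt2, Psat1 and Psph, against 4.02% of tested genes in that class. For rises over 1 the counts were 7 of the 10 genes and 24.1% of all, and for falls beyond -1 they were 1 gene and 31.5%. At an adjusted p under 1e-05 with a log2 fold change over 1, which is 1 reading of the thresholds in the study, 6 of the 10 rose, Phgdh, Psat1, Psph, Shmt2, Mthfd2 and Mthfd1, against 4.6% of all genes (13.4% with falls counted too). Groups did not overlap for 9 of the 10 genes, against 80.6% of all tested genes, with mut/mut higher for 8 (39.4% of all) and lower for 1 (41.2% of all). The median log2 fold change of the 10 genes was 1.81, and that of all tested genes was -0.07.

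**Figure D1:**
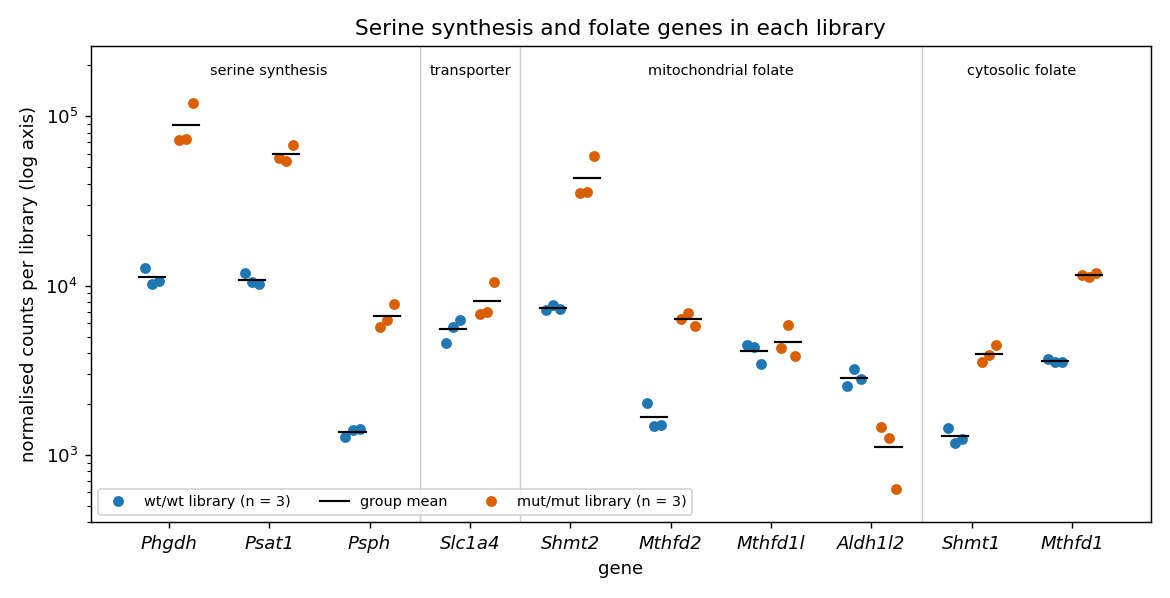
Normalised counts of the 10 genes (log axis) in each library, with wt/wt in blue, mut/mut in orange and group means as black lines (n = 3 each). The serine synthesis genes, Shmt2, Mthfd2 and both cytosolic genes lie higher in every mut/mut library, Aldh1l2 lies lower in every one, and Mthfd1l overlaps.

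Phgdh encodes phosphoglycerate dehydrogenase, the first and committed enzyme of serine synthesis (mm10 chromosome 3, 98313170 to 98339990, minus strand, protein coding). Normalised counts in its case were 12709, 10233 and 10678 in wt/wt replicates 1 to 3 and 72538, 73162 and 119697 in mut/mut replicates 1 to 3. All mut/mut libraries were far above all wt/wt libraries, with mut/mut replicate 3 the highest. Means were 11207 ± 1320 and 88466 ± 27049 (SD, n = 3 each), the log2 fold change was 2.95 ± 0.21 (SE, limma adjusted p = 1.46e-06), and 0.351% of tested genes had a larger rise. Phgdh has near-identical copies in the genome: 47.4% of the 75-base words of its transcript also occur in 13 other annotated genes, so its level is uncertain to the extent that reads were split or dropped. Of those 13, 1 was in the table, at no more than 2.36 normalised counts in any library.

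Psat1, phosphoserine aminotransferase, makes phosphoserine with nitrogen from glutamate (chromosome 19, 15904678 to 15947337, minus strand). It was measured at 11790, 10498 and 10168 normalised counts in wt/wt and at 56312, 54269 and 68056 in mut/mut. These groups were tight and well apart, at 10818 ± 857 and 59546 ± 7441 (SD, n = 3 each). The log2 fold change of 2.46 ± 0.15 (SE) had the smallest adjusted p of the 10 genes (limma, 7.07e-07). Psph, the phosphatase that releases serine in the last step (chromosome 5, 129765558 to 129787449, minus strand), was the least abundant of the 3. It stood at 1282, 1395 and 1426 in wt/wt and at 5684, 6281 and 7797 in mut/mut, a log2 fold change of 2.26 ± 0.17 (SE, limma adjusted p = 1.79e-06). Again the groups did not overlap. Of the 4329 exon bases of Psph, 452 are shared with Cct6a on the opposite strand, and whether counting used strand is not given in the sources used here.

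Slc1a4 encodes ASCT1, a neutral amino acid exchanger that carries serine across the plasma membrane (chromosome 11, 20302180 to 20332713, minus strand). Normalised counts were 4558, 5673 and 6277 in wt/wt and 6816, 6981 and 10507 in mut/mut. Every mut/mut library was above every wt/wt library, but the gap between 6277 and 6816 was narrow. The log2 fold change was 0.54 ± 0.20 (SE, limma adjusted p = 0.0335), and 35.8% of tested genes had a larger one. This call did not survive leaving out wt/wt replicate 1 (0.41, adjusted p = 0.134), wt/wt replicate 2 (0.57, adjusted p = 0.0641) or mut/mut replicate 3 (0.34, adjusted p = 0.0525). Per 1000000 of the normalised total, Slc1a4 took 187 ± 33.8 in wt/wt and 165 ± 20.5 in mut/mut (SD, n = 3 each), so its direction depended on the scaling.

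Among mitochondrial enzymes, Shmt2, which charges tetrahydrofolate with the carbon of serine, was the most abundant (chromosome 10, 127517123 to 127522444, minus strand). It was measured at 7167, 7667 and 7238 normalised counts in wt/wt and at 35139, 35654 and 58230 in mut/mut. As with Phgdh, the groups were far apart and mut/mut replicate 3 was the highest. Means of 7357 ± 270 and 43008 ± 13186 (SD, n = 3 each) gave a log2 fold change of 2.51 ± 0.20 (SE, limma adjusted p = 3.05e-06). Mthfd2, the mitochondrial methylene-tetrahydrofolate dehydrogenase and cyclohydrolase of growing cells (chromosome 6, 83305691 to 83325908, minus strand), stood at 2021, 1488 and 1491 in wt/wt and at 6319, 6910 and 5764 in mut/mut. Here mut/mut replicate 3 was the lowest of its group, yet above all wt/wt libraries. The log2 fold change was 1.94 ± 0.17 (SE, limma adjusted p = 5.4e-06).

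The remaining mitochondrial enzymes did not rise. Mthfd1l, the formate-releasing synthetase (chromosome 10, 3973118 to 4167081, plus strand), was measured at 4471, 4354 and 3450 normalised counts in wt/wt and at 4261, 5809 and 3844 in mut/mut. These ranges overlapped, and the log2 fold change of 0.17 ± 0.19 (SE) did not pass the test (limma adjusted p = 0.443). Aldh1l2, which oxidises formyl-tetrahydrofolate to carbon dioxide (chromosome 10, 83487450 to 83534140, minus strand), fell from 2541, 3200 and 2797 in wt/wt to 1462, 1252 and 632.5 in mut/mut. No mut/mut library reached the wt/wt range, and replicate 3 was the lowest. Means of 2846 ± 332 and 1115 ± 431 (SD, n = 3 each) gave a log2 fold change of -1.43 ± 0.28 (SE, limma adjusted p = 0.000877). It remained called whichever library was left out, at -1.67 to -1.07. Of its 7503 exon bases, 1056 are shared with D10Wsu102e on the opposite strand.

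Both cytosolic genes rose. Shmt1, the cytosolic counterpart of Shmt2 (chromosome 11, 60788104 to 60811718, minus strand), stood at 1443, 1173 and 1247 normalised counts in wt/wt and at 3517, 3891 and 4481 in mut/mut. The log2 fold change was 1.62 ± 0.16 (SE, limma adjusted p = 1.11e-05). Mthfd1, the trifunctional enzyme that converts folate one-carbon units in the cytosol (chromosome 12, 76255298 to 76319803, plus strand), was the steadiest of the genes within groups. It was measured at 3665, 3536 and 3519 in wt/wt and at 11525, 11252 and 11798 in mut/mut. Its means of 3573 ± 80.1 and 11525 ± 273 (SD, n = 3 each) gave a log2 fold change of 1.69 ± 0.14 (SE, limma adjusted p = 3.24e-06). Neither cytosolic gene showed any overlap between groups.

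The order of the genes by level was compared per kilobase of their principal coding transcripts. In wt/wt cultures Phgdh was highest at 5920 ± 697 normalised counts per kb, followed by Psat1 at 4134 ± 328 and Shmt2 at 3214 ± 118 (SD, n = 3). Shmt1 was lowest at 451 ± 48.9, within the range of Aldh1l2 at 472 ± 55.1. Libraries also overlapped between Slc1a4 and Mthfd1l, between Mthfd1l and Mthfd1, and between Mthfd2 and Psph. In mut/mut cultures the same 3 genes led, with Phgdh at 46733 ± 14289, Psat1 at 22754 ± 2843 and Shmt2 at 18789 ± 5760 per kb, the ranges of Psat1 and Shmt2 overlapping. Aldh1l2 was last, at 185 ± 71.6 per kb, clear of all others. Psph moved from the eighth place to the fourth, where its range overlapped that of Mthfd1.

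Shares of the normalised total do not move with library scaling. All 10 genes together took 1701, 1685 and 1666 per 1000000 in wt/wt libraries and 4519, 4556 and 5217 per 1000000 in mut/mut libraries. The wt/wt shares were close to each other and the mut/mut shares were all higher. Serine synthesis genes rose from 792 ± 50.2 to 3153 ± 307 per 1000000 (SD, n = 3 each), which makes them the larger part of the sum in mut/mut. Mitochondrial folate genes took 541 ± 28.5 and 1125 ± 93 per 1000000 and cytosolic folate genes 165 ± 3.54 and 321 ± 24.7.

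Within-library ratios set mitochondrial enzymes against cytosolic ones, each tested by exact permutation of the 6 libraries, two-sided, which cannot go below p = 0.1. With 5 ratios and that floor, none can pass a 0.05 threshold. The log2 ratio of Mthfd1l to Mthfd1 was 0.287, 0.300 and -0.028 in wt/wt and -1.435, -0.954 and -1.618 in mut/mut, a difference of -1.52 (exact p = 0.1). Mthfd1l was thus near the level of Mthfd1 in wt/wt and well below it in every mut/mut library. The log2 ratio of Aldh1l2 to its cytosolic relative Aldh1l1 was -2.602, -2.776 and -3.082 in wt/wt and -5.107, -5.395 and -6.974 in mut/mut, a difference of -3.00 (exact p = 0.1). The 2 genes moved in opposite directions, Aldh1l1 from 15437, 21933 and 23697 normalised counts to 50413, 52703 and 79629. For Mthfd2 over Mthfd1 the groups overlapped (difference 0.25, exact p = 0.3), and with the trend in GC content and transcript length removed they no longer did (difference 0.40, exact p = 0.1). For Shmt2 over Shmt1 they did not (2.311, 2.707 and 2.536 against 3.320, 3.196 and 3.699, difference 0.89, exact p = 0.1). That separation ended once the same trend was removed (difference -0.07, exact p = 0.7, groups overlapping), whereas those of Mthfd1l over Mthfd1 and Aldh1l2 over Aldh1l1 remained at -1.31 and -1.55. Shmt2 over Phgdh differed by -0.44 between groups (exact p = 0.1), and its mut/mut values of -1.046, -1.037 and -1.040 were nearly equal. Adjusted by Benjamini-Hochberg over the 5 ratios, the smallest exact p was 0.125.

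**Figure D2:**
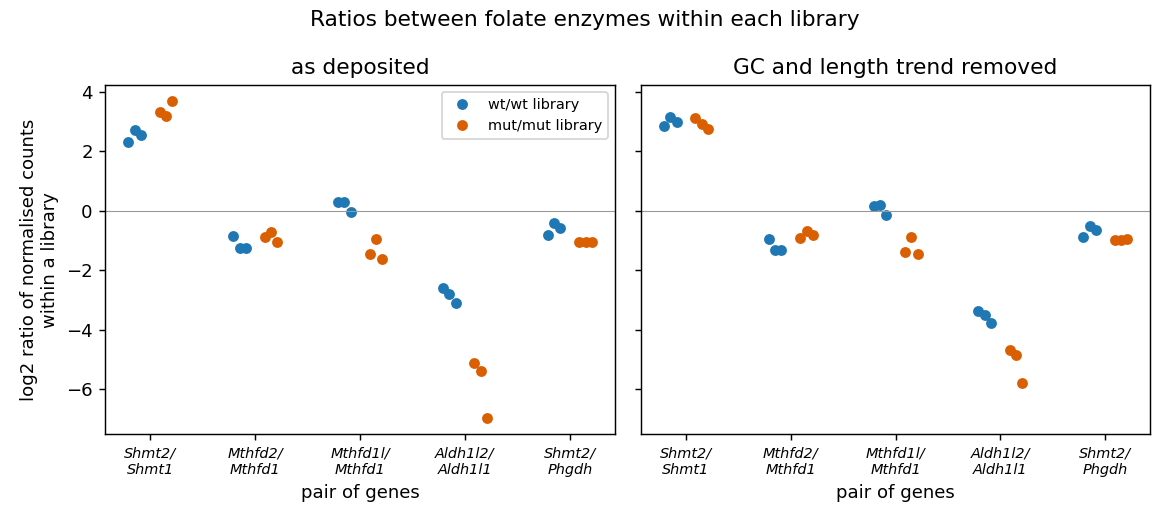
Log2 ratios between 5 pairs of genes within each library, as deposited (left) and without the GC and length trend (right), wt/wt in blue and mut/mut in orange (n = 3 each). Mthfd1l over Mthfd1 and Aldh1l2 over Aldh1l1 are lower in mut/mut in both panels, Shmt2 over Shmt1 is separated only on the left, and Mthfd2 over Mthfd1 only on the right.

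Fold changes across all genes followed transcript composition in these libraries. Over the 13232 tested genes with a known transcript, the log2 fold change had a Spearman correlation of 0.588 with GC content and of -0.442 with length, across genes that are not independent replicates and share the same 6 libraries. The median GC content was 50.7%, and Shmt2 at 57.4% and Phgdh at 57.2% lay well above it, whereas Psat1 at 48.4%, Shmt1 at 49.2% and Mthfd2 at 49.6% lay below it. Aldh1l2 was the longest transcript at 6027 bases and the poorest in GC at 47.7%. With the trend removed, log2 fold changes became 1.67 for Phgdh, 1.37 for Shmt2, 1.10 for Psph, 1.05 for Mthfd1 and -0.54 for Aldh1l2, all still called (limma adjusted p at most 0.0296). On that scale 29% of all tested genes were called higher and 40.3% lower, with a median log2 fold change of -0.18. Psat1 hardly moved, at 2.38, and Shmt1 stood at 1.43 and Mthfd2 at 1.45. Slc1a4 came to 0.03 (adjusted p = 0.866) and Mthfd1l to -0.26 (adjusted p = 0.186).

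**Figure D3:**
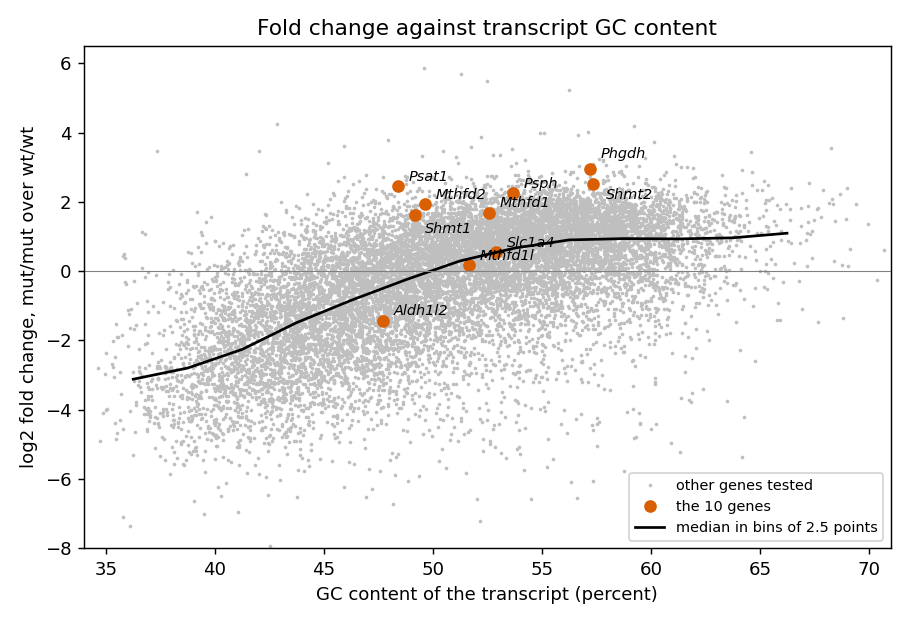
Log2 fold change, mut/mut over wt/wt, against GC content of the principal coding transcript in percent, with the 10 genes in orange, other tested genes in grey and medians in bins as a black line. Of the 10 genes, 7 lie well above the line, and Slc1a4, Mthfd1l and Aldh1l2 lie near or below it.

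Library scaling moved the values as well. Deposited values kept the median of all tested genes at -0.07 on the log2 scale, and with column totals set equal it was -0.77, a shift against which the following values are to be read. On that scale Phgdh stood at 2.23, Shmt2 at 1.79, Psat1 at 1.74, Psph at 1.54, Mthfd2 at 1.22, Mthfd1 at 0.98 and Shmt1 at 0.91, all still called higher, as were 20.6% of tested genes. Aldh1l2 was lower at -2.14 (limma adjusted p = 0.00115). Slc1a4 turned to -0.17 (adjusted p = 0.362) and Mthfd1l to -0.55 (adjusted p = 0.0564), neither of which passed.

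**Figure D4:**
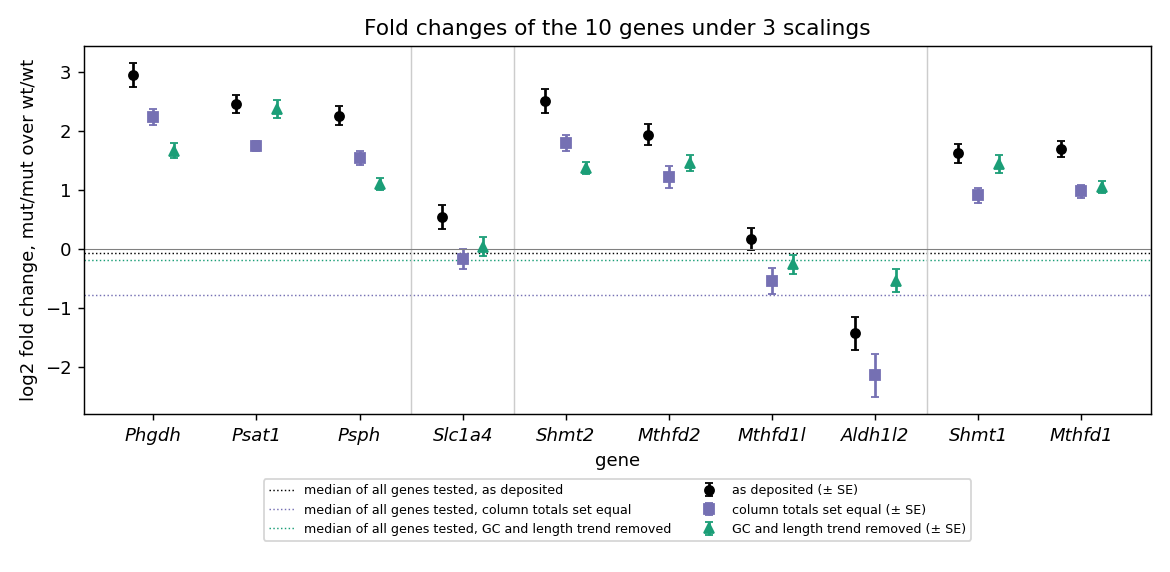
Log2 fold changes ± SE of the 10 genes as deposited (black), with column totals set equal (purple) and without the GC and length trend (green), dotted lines giving the median of all tested genes on each scale. Phgdh, Psat1, Psph, Shmt2, Mthfd2, Shmt1 and Mthfd1 stay above 0 and Aldh1l2 below 0 on all 3 scales, and Slc1a4 and Mthfd1l change with the scale.

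Genes around the 10 were read from 6 lists of the same pathways, of which 54 of 60 genes were tested. In these lists 26 genes were called higher, 13 lower and 15 were not called, with a median log2 fold change of 0.48. For all tested genes the counts were 5135 higher, 5407 lower and 3422 not called. With column totals set equal, the lists gave 17 higher and 23 lower, and of all tested genes 20.6% were called higher and 54.5% lower. Unlike the serine synthesis genes, the wider pathway held genes called in both directions on either scale.

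Other folate enzymes numbered 6 higher and 3 lower of 12 tested, with a median of 0.96. The purine synthesis enzymes Gart and Atic, which use formyl-tetrahydrofolate, rose, Gart from 2943, 2454 and 2448 normalised counts to 11033, 11426 and 13478 and Atic with a log2 fold change of 2.13, and thymidylate synthase, Tyms, rose with 2.25 (1122, 656.3 and 763.2 normalised counts in wt/wt, 4226, 3514 and 4109 in mut/mut). Sardh, which makes one-carbon units from sarcosine in mitochondria, rose with 2.09, Fpgs, which retains folates in the cell by polyglutamylation, with 1.87, and Aldh1l1 with 1.57. Mthfd2l, a relative of Mthfd2, fell from 540.6, 477.6 and 445.3 normalised counts to 288.4, 298.7 and 159.9 (log2 fold change -1.02, limma adjusted p = 0.00455), opposite in direction to Mthfd2. With the GC and length trend removed it was at -0.22 and not called (adjusted p = 0.259). Ggh, which trims polyglutamate from folates, fell with -0.76 but was called higher, at 0.55, with the trend removed. Mthfs, which returns formyl-tetrahydrofolate to the active pool, fell with -0.79. Ftcd and Dmgdh were listed at 0.

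Among carriers, 7 of 12 tested rose and 2 fell, with a median of 1.03. The folate transporters Slc46a1 and Slc19a1 rose with log2 fold changes of 2.10 and 1.50, the mitochondrial glycine carrier Slc25a38 with 1.93, and the glutamine and serine exchanger Slc1a5 with 1.69. Slc1a5 went from 446.5, 508.8 and 550 normalised counts to 1289, 1541 and 2100, with no overlap between the groups. The mitochondrial serine carrier Sfxn1 stood at 3594, 3829 and 3586 in wt/wt and 4606, 4217 and 2753 in mut/mut, with overlap (log2 fold change 0.04, limma adjusted p = 0.867). The mitochondrial folate carrier Slc25a32 fell with -0.99 (limma adjusted p = 0.0181), but was called higher at 1.27 with the trend removed. Both folate receptor genes were low. Folr1, also in the choroid plexus list, rose from 1.674, 0.7915 and 8.551 normalised counts to 11.89, 31.23 and 23.52 (limma adjusted p = 0.00465), a call that ended with the trend removed (1.23), and Folr2 fell with -1.68 from 24.76 normalised counts or fewer.

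The glycine cleavage system, the mitochondrial complex that takes a one-carbon unit from glycine, had all 4 genes called. Gcsh rose with a log2 fold change of 1.98 ± 0.14, Gldc with 0.80 ± 0.15 and Amt with 0.67 ± 0.15 (SE). Gldc and Amt did not keep their calls with the trend removed, at 0.18 and 0.11. Dld, whose product also serves the pyruvate and oxoglutarate dehydrogenase complexes, fell from 4665, 3775 and 3939 normalised counts to 1073, 699.5 and 515.8 (-2.49 ± 0.25, SE, limma adjusted p = 9.47e-06), and to -0.95 with the trend removed.

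In the list for serine and glycine use, 5 of 10 tested genes rose and 1 fell, with a median of 0.63. Gcat, whose enzyme can form glycine as well as use it, rose from 514.3, 490.3 and 548.9 normalised counts to 3859, 3254 and 6265. Its log2 fold change of 3.05 ± 0.23 (SE, limma adjusted p = 2.18e-06) was the largest rise in the 6 lists on the deposited values. With the trend removed Gcat stood at 1.95, below Gclm at 2.90, Tyms at 2.40 and Cbs at 2.21. The transsulfuration genes Cbs and Cth rose with 1.68 and 1.16, and the glutathione synthesis genes Gss and Gclm with 1.77 and 0.87. Serine racemase, Srr, fell with -1.12. In the methionine cycle 3 of 8 tested genes rose and 3 fell, with a median of 0.22. Ahcy, which hydrolyses S-adenosylhomocysteine, rose from 4904, 4277 and 4467 normalised counts to 19121, 18412 and 28972 (log2 fold change 2.26, limma adjusted p = 4.14e-06), and its relatives Ahcyl1 and Ahcyl2 fell with -1.18 and -1.16. Methionine synthase, Mtr, fell with -0.64 as deposited but was called higher at 0.96 with the trend removed. Its reductase Mtrr rose with 0.69 and Mtap, the methionine salvage gene, with 1.01.

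**Figure D5:**
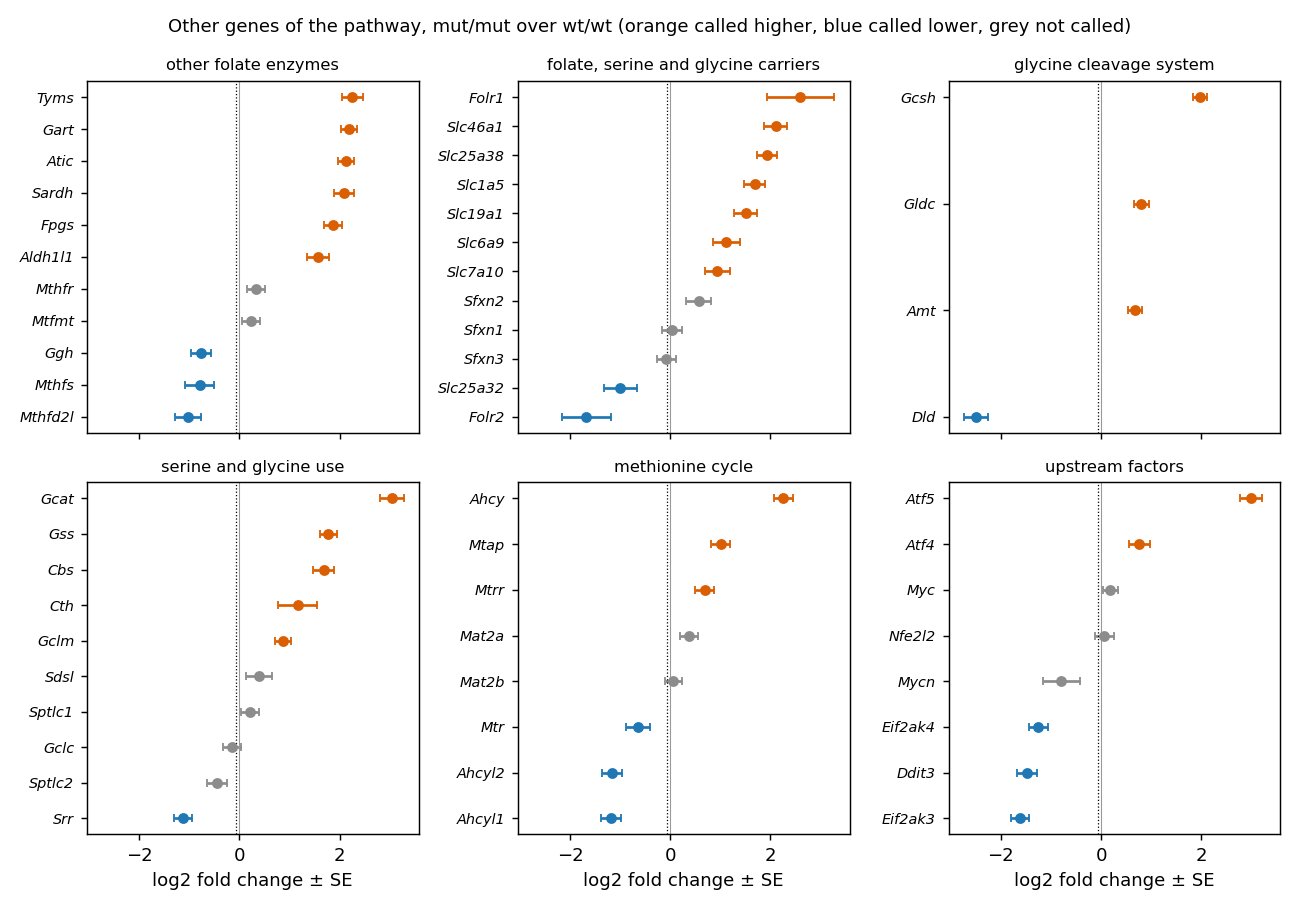
Log2 fold changes ± SE, mut/mut over wt/wt, of genes in 6 lists around serine and folate metabolism (n = 3 a group), orange called higher, blue called lower, grey not called, dotted line the median of all tested genes. Each list holds genes on both sides of 0, with Gcat and Atf5 farthest to the right and Dld farthest to the left.

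Upstream factors were mixed, with 2 of 8 higher, 3 lower and a median of -0.36. Atf4 was measured at 8001, 5279 and 5064 normalised counts in wt/wt and at 9076, 11949 and 9677 in mut/mut (log2 fold change 0.76 ± 0.20, SE, limma adjusted p = 0.0059). This call ended with the trend removed (-0.43, adjusted p = 0.0961), with column totals set equal (0.05, adjusted p = 0.832) and with upper quartiles equal (0.43, adjusted p = 0.0631). With the trend removed and a replicate block, Atf4 was called lower (-0.43, limma adjusted p = 0.0372). Its relative Atf5 rose from 4099, 2775 and 2756 to 21454, 21981 and 33664 (2.99 ± 0.22, SE, limma adjusted p = 2e-06) and stayed at 1.65 with the trend removed. Ddit3, a stress-induced partner of ATF4, fell with -1.48, and Eif2ak3 and Eif2ak4, the kinases that raise ATF4 translation under endoplasmic reticulum stress and amino acid shortage, fell with -1.62 and -1.25. Myc was at 0.19 and Mycn at -0.79, and neither passed (limma adjusted p = 0.292 and 0.0685). Both were called lower with the trend removed (Myc -1.31, adjusted p = 0.000682, and Mycn -1.72, adjusted p = 0.00387) and with column totals set equal (Myc -0.53, adjusted p = 0.0244, and Mycn -1.49, adjusted p = 0.0128), so the sign of Myc turned with the scaling. ATF4 is largely set at translation, which these transcript levels do not measure.

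Several of these pathway calls were less firm than those of the serine synthesis genes. With column totals set equal, Gldc (0.09), Amt (-0.04), Cth (0.46), Gclm (0.16), Mtrr (-0.02) and Mtap (0.30) were among the genes no longer called. When 1 library was left out, Cth lost its call without wt/wt replicate 2 (0.94), mut/mut replicate 1 (1.00) or mut/mut replicate 2 (0.91), and Mthfs without wt/wt replicate 2 (-0.74), wt/wt replicate 3 (-0.74) or mut/mut replicate 3 (-0.53). Mtr lost its call without wt/wt replicate 1 (-0.62), 2 (-0.61) or 3 (-0.70), and Slc25a32 without wt/wt replicate 1 (-0.86). Gart, Atic, Tyms, Gcat, Ahcy, Gcsh, Atf5 and Dld kept their calls and directions in each of these settings.

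The pattern of Phgdh over the 6 libraries was compared with that of 6405 genes with a mean of at least 1000 normalised counts, by Euclidean distance between centred log2 profiles. Nearest were Grwd1 (0.119), Bop1 (0.218), Nr2c2ap (0.227), Atf5 (0.256) and Dctpp1 (0.277), with log2 fold changes of 2.93, 2.87, 2.89, 2.99 and 2.75. Of the serine and folate genes, Shmt2 was nearest to Phgdh, at place 57 (distance 0.613), then Psat1 at 76 (0.699) and Psph at 193 (0.956). Mthfd2 stood at 693 and Aldh1l2 at 5638, so Psat1, Psph and Shmt2 lay nearer to Phgdh in pattern than the remaining folate genes did. With 6 libraries in 2 separate groups, this distance is mostly that of the fold change.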

How the data were processed

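Per the study's methods and the submitters' processing notes, reads were trimmed, aligned to mouse mm10 with STAR and passed by the authors through DESeq2 normalisation. Which gene counter, annotation and strand setting they used is not given in the sources used here. The deposited signal was DESeq2-normalised gene counts, not whole numbers, in 1 table of 24972 names by 6 libraries. Whole reads could not be recovered, so no count test was run. Depth was estimated by dividing each total by its commonest low value. A column whose name lacks 1 digit of its label was taken as wt/wt replicate 2.

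Values were taken as log2(value + 1), and limma 3.58.1 (R 4.3.3) was fitted to the 13964 genes whose mean reached 10 (mean-variance trend, robust empirical Bayes), two-sided, without a covariate, with Benjamini-Hochberg adjustment over all of them. The threshold for a call was 0.05. Fold changes, on the log2 scale, are mut/mut over wt/wt and understate changes of low genes. The GC and length trend was fitted in each library with splines of 5 degrees of freedom and removed. The main fit was also run on simulated data in which few genes changed and no GC or length trend was put in. That setting differs from these data, so the run is not used as support. Positions, transcript GC content and length came from GENCODE on GRCm38 (mm10), the latter 2 for 94.8% of tested genes, and promoters from RefSeq, read with python 3.11.15.

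The 10 genes and all lists were chosen with earlier results of these data known. All 10 are named, and of each list up to 5 genes with the smallest adjusted p and genes against the direction of most of their list. Other genes named from the lists (Sfxn1, Mtap, Myc, Mycn and the genes at 0 among them) were chosen after their values were seen, and 1 gene counted in the lists is not reported here. Alternatives were other pseudocounts, filters and scalings, GC and length correction, plain empirical Bayes, a replicate block and leaving out each library.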

Additional observations from a re-analysis of the deposited data

How the results depend on the processing

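Of 176 values recomputed under other settings, 162 were counted as kept. A fold change was kept with its direction and call, a ratio with its direction, and a count within a fixed factor of its main value. Counts could thus differ and still be kept. With column totals set equal, 2874 of all genes were called higher in place of 5135, and 7612 lower in place of 5407. The pathway lists then gave 17 higher and 23 lower in place of 26 and 13. Slc1a4 lost its call at -0.17 with totals equal, 0.21 with upper quartiles equal, 0.032 after removal of the GC and length trend, with or without a replicate block, and 0.54 under plain empirical Bayes (adjusted p = 0.0632), and ranged from 0.34 to 0.65 when 1 library was left out. Mthfd1l, never called, changed sign at -0.55 with totals equal, -0.17 with upper quartiles equal and -0.26 with the trend removed, with or without the block, and ranged from -0.006 to 0.291 when 1 library was left out. The Shmt2 over Shmt1 difference changed sign at -0.065 with the trend removed. The longer motif TGATGNAAT was in the promoters of 0 of the 9 genes. The cause of these changes was not tested. Of 126 values with 1 library left out, 122 were kept by the same rules.

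Same-numbered libraries deviated together weakly or not at all (correlations 0.112, -0.00369 and 0.0712 across genes). These values cannot show whether equal numbers share an origin, and the main fit did not pair them. With the replicate block 8 of the 10 genes were called higher and 1 lower, as without it, and 36.5% of all genes higher and 39.2% lower. For wt/wt replicates 1 and 3 the same-numbered mut/mut library was the closest, and wt/wt replicate 2 deviated most like mut/mut replicate 3, not replicate 2. With 3 cultures a group, a difference as small as that of Mthfd1l against its error could not be resolved, and counts of Folr1 and Folr2 are low.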
